A study of Mus musculus with 12 samples.

Results

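The oligoadenylate synthetase (OAS) genes examined here are Oas2, Oas3, Oasl1 and Oasl2, which are 4 of the 9338 genes listed in at least 1 of 4 tables that each compare a pair of groups. They were picked by gene symbol, with earlier results of these data known, and are those of the 12 family genes that appear in the table comparing the genotypes on chow. Each table lists only genes for which the authors' test gave an unadjusted p-value under 0.05, so a gene above that threshold has no value for that comparison. The tables that compare TET2 KO with WT mice on chow, and WT mice on HFD with those on chow, listed all 4 members. On HFD, TET2 KO against WT listed only Oasl2, and in TET2 KO, HFD against chow listed only Oasl1. Oasl1 and Oasl2 therefore had values in all 12 libraries, and Oas2 and Oas3 in the 9 libraries of the other groups than TET2 KO on HFD.

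OAS enzymes bind double-stranded RNA, as made by viruses, and then build 2-5A, a short chain of linked adenosines that sets off the breakdown of RNA in the cell. Interferons induce the genes, which are commonly used as a readout of interferon signalling in endothelial and immune cells alike. Oas2 and Oas3 encode active synthetases, Oasl2 encodes an OAS-like protein that keeps synthetase activity in the mouse, and Oasl1 encodes an OAS-like protein without that activity that is known to restrain translation of the transcription factor Irf7.

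RNA was sequenced from lung cells collected on anti-CD31 beads, from 12 male C57Bl/6J mice in 4 groups of 3. CD31 is an adhesion molecule of endothelial cells that some blood cells also carry, so the cells were enriched for endothelial cells rather than pure. All mice, controls included, were TET2fl/fl and received tamoxifen (40 mg/kg on 3 days, when 6 to 8 weeks old). WT mice lacked Cre, and TET2 KO mice carried Cdh5-CreERT2, in which the promoter of an endothelial cadherin drives a tamoxifen-dependent recombinase. From 1 week after tamoxifen they ate chow with 13% of its energy from fat or a high-fat diet (HFD) with 60%, for 20 weeks. The 4 groups are named by genotype and diet (WT chow, TET2 KO chow, WT HFD, TET2 KO HFD). Tet2 had no listed value in any TET2 KO library, so the genotype of these libraries rests on their labels.

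All 4 members lie on chromosome 5, and in the deposited tables (mm10) each has the same start and end as in GENCODE M21. Oasl2 (ENSMUSG00000029561, chr5:114896936-114912234, plus strand) is followed after 11005 bases by Oasl1 (ENSMUSG00000041827, chr5:114923240-114937915, plus strand). Oas2 (ENSMUSG00000032690, chr5:120730333-120749853, minus strand) lies 3244 bases from Oas3 (ENSMUSG00000032661, chr5:120753098-120777661, minus strand), which neighbours Oas1e. Of all stretches of 50 bases in the annotated transcripts, 0% in Oas2 and Oasl1, 0.138% in Oasl2 and 0.521% in Oas3 also occurred in a transcript of another gene, and no stretch of 100 bases did. Reads could therefore rarely be divided among near-identical copies. An antisense gene, Gm13822, overlaps Oasl1, and an unconfirmed transcript on the opposite strand, Gm43068, overlaps Oas2. The strand setting of the counting is not given in the sources used here, so reads from these partners cannot be told apart from those of Oasl1 and Oas2.

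The 150 bases before the RefSeq transcript start (GRCm38.p6) are shown for the 3 members that have an entry, because interferon-induced genes often carry an interferon-stimulated response element there. Capitals mark a match to the core of that element, written GAAANNGAAA, on either strand.
Oas3, chr5:120777660-120777809, minus strand: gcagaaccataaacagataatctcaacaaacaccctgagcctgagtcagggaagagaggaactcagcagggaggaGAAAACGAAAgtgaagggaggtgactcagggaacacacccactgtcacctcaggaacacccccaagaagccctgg
Oasl1, chr5:114923090-114923239, plus strand: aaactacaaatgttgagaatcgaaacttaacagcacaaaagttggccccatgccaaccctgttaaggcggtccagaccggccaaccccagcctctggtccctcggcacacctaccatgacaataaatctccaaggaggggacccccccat
Oasl2, chr5:114896784-114896933, plus strand: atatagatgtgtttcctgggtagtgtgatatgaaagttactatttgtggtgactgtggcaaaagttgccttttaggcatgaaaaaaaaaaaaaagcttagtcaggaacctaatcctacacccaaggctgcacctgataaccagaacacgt
Within 250 bases before the start, Oas3 held 1 match to GAAANNGAAA, which lay 75 to 66 bases before the start, and Oasl1 and Oasl2 held 0. Of 32851 promoters, 2.98% held this pattern. The shorter-spaced form GAAANGAAA, held by 2.68% of promoters, had 0 matches in the same window of the 3 genes. A match to letters is a description of this window and says nothing of whether a factor was bound.

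The libraries held between 36.7 and 56.8 M reads on genes, and the members had between 185 and 4684 reads per library, which puts the counting error of a single value between 1.46 and 7.35%. The spread between mice was larger. Levels are given as FPKM, the reads per kilobase of gene and per M (mega) reads on genes, so that levels can be compared between genes. The difference between groups was tested on the counts with edgeR's quasi-likelihood test (two-sided), fitted to every gene of a table, and a gene is called, and described as having risen or fallen, when the unadjusted p-value was under 0.05, the threshold the study used. The adjusted p-values given beside it are Benjamini-Hochberg values over all genes the authors adjusted, or over the genes fitted where 9 or 12 libraries were fitted together. Genes entered those joint fits only if several comparisons had listed them, so the adjusted p-values there do not cover all measured genes. They are not on the same scale as those of a single comparison. Since the smallest p that exact permutation of 3 against 3 libraries allows is 0.1, the overlap of the libraries is described in place of such a test.

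WT chow replicate 3 stood apart from the other WT chow libraries and bears on every comparison with that group. Compared with the mean of the other 2 libraries, its FPKM was 2.29 times as high for Oas2, 2.8 times for Oas3, 1.45 times for Oasl1 and 2.36 times for Oasl2. In the same library all 10 of 10 endothelial markers were at their highest in the group, with a median ratio of 2.34, whereas 44.2% of the 5535 genes with WT chow values and at least 50 reads on average were at their highest there, with a median ratio of 1.04. None of 6 natural killer (NK) cell markers was highest there (median ratio 0.734), and 1 of 4 listed T cell markers was (median ratio 0.875), whereas 3 of 4 listed markers of monocytes and macrophages were (median ratio 1.28). Of 4 listed lung epithelial markers, 2 were highest there (median ratio of the 4 1.58). These were Sftpb (ratio 2.68) and Ager (2.02), while Epcam was at 0.80 and Scgb1a1 at 1.13. The 4 listed genes of interferon signalling considered were all highest there too, but by a median ratio of 1.22. In bulk RNA, fewer cells of a type and less RNA per cell cannot be told apart, and the part of cell composition in these differences was not tested.

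**Figure D1:**
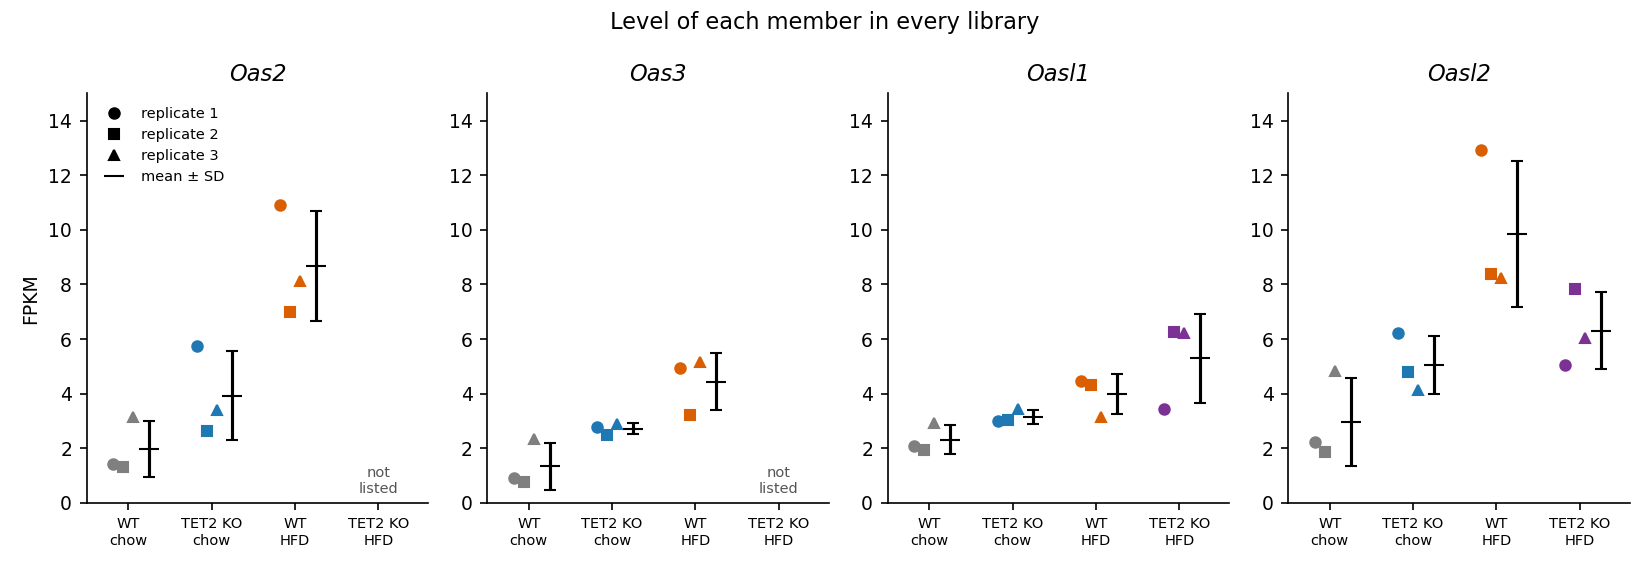
FPKM of Oas2, Oas3, Oasl1 and Oasl2 (y axis) in the 12 libraries by group (x axis), with 1 point for each mouse, its shape giving the replicate number, and bars for mean ± SD (n = 3). WT chow replicate 3 lies above the other WT chow libraries in all 4 genes, the WT HFD libraries lie above every WT chow library, and TET2 KO HFD replicate 1 is the lowest of its group in Oasl1 and Oasl2.

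To ask whether loss of TET2 moved the OAS genes on chow, TET2 KO libraries were compared with WT libraries. Oas2 and Oas3 rose, each by about 2-fold, and Oasl1 and Oasl2 were higher on average without passing the threshold. That is 2 of 4 members called higher, where 30.6% of the 1298 listed genes were. The median log2 fold change of the 4 was 0.88, beside -0.37 over all listed genes. The 4 are those of the 12 family genes that this comparison listed, so they had already passed the authors' test here. These values are therefore not independent of how the members were picked. By edgeR's adjusted p-value, 0 of the 4 and 0 genes of the whole table passed 0.05.

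Oas2 was at 1.42, 1.32 and 3.15 FPKM in the 3 WT libraries and at 5.76, 2.63 and 3.41 FPKM in the 3 TET2 KO libraries. WT replicate 3 lay within the TET2 KO range, so the groups overlapped. The means were 1.96 ± 1.02 and 3.93 ± 1.63 FPKM (SD, n = 3 each), and the log2 fold change was 1.00 (SE 0.42, edgeR adjusted p = 1).

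Oas3 was at 0.920, 0.743 and 2.33 FPKM in WT and at 2.78, 2.49 and 2.90 FPKM in TET2 KO. Every TET2 KO library lay above every WT library, the nearest being WT replicate 3. Its log2 fold change was 1.03 (SE 0.41, edgeR adjusted p = 1).

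Oasl1 was at 2.09, 1.93 and 2.91 FPKM in WT and at 2.99, 3.03 and 3.45 FPKM in TET2 KO, again without overlap. The difference of 0.45 on the log2 scale (SE 0.21, edgeR adjusted p = 1) did not pass the threshold. Groups lay apart with TET2 KO higher for Oas3 and Oasl1, 2 of 4 members, as they did for 30.7% of listed genes.

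Oasl2 was at 2.23, 1.86 and 4.83 FPKM in WT and at 6.21, 4.81 and 4.12 FPKM in TET2 KO. WT replicate 3 lay above 2 of the 3 TET2 KO libraries. The log2 difference was 0.76 (SE 0.36, edgeR adjusted p = 1).

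The calls changed when single libraries were left out, while the direction did not. Without WT chow replicate 3, all 4 members were higher in TET2 KO at an unadjusted p under 0.05, with log2 fold changes of 1.51 for Oas2, 1.70 for Oas3, 0.64 for Oasl1 and 1.29 for Oasl2. Without TET2 KO replicate 1 or 3, or without WT replicate 1 or 2, 0 of 4 passed, and without TET2 KO replicate 2, 1 of 4 did. In those 5 fits, with fewer libraries each, the log2 fold change stayed between 0.61 and 1.23 for Oas2 and between 0.74 and 1.10 for Oas3. Under TMM factors all 4 passed. No endothelial marker was listed in this comparison, so their level in TET2 KO on chow was not analysed here. Of 7 T cell markers 4 were listed, all higher in TET2 KO and 3 of them called, with a summed level of 71.6 to 99.4 FPKM in TET2 KO and 42 to 67.3 FPKM in WT. Of 6 NK cell markers, Nkg7 and Prf1 were listed and rose, with a summed level of 26.5 to 40.3 against 14.8 to 23.7 FPKM. Of 8 monocyte and macrophage markers only Ccr2, a chemokine receptor of monocytes, was listed, and it rose from 5.95, 4.42 and 6.79 FPKM in WT to 9.55, 12.9 and 12.3 FPKM in TET2 KO (log2 fold change 1.01, SE 0.20). In WT replicate 3, Nkg7 stood at 15.2 and Prf1 at 2.55 FPKM, within or below the level of the other WT libraries. Ccr2 at 6.79 FPKM was the highest of the group, as the OAS genes were. The T cell receptor gene Trac was highest there too, at 22.1 FPKM, but close to the 21.3 FPKM of replicate 1. The listed T cell markers Cd3e, Cd8a and Lck were lower there than the mean of the other WT libraries (ratios 0.83, 0.89 and 0.86). The part of these cells in the result was not tested.

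To ask what the diet did in mice with TET2, WT on HFD was compared with WT on chow, using the same 3 WT chow libraries as above. All 4 members rose. Oas2 rose by 4.43-fold, Oas3 by 3.34-fold, Oasl2 by 3.32-fold and Oasl1 by 1.73-fold. Of the 7330 genes listed, 42.4% were called higher, and every WT HFD library lay above every WT chow library for the 4 members, as for 39.8% of listed genes.

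Oas2 stood at 10.9, 7.0 and 8.11 FPKM on HFD (mean 8.67 ± 2.02, SD, n = 3), where chow libraries reached 3.15 FPKM at most. Its log2 fold change of 2.15 (SE 0.37) had an edgeR adjusted p = 0.0368. The lowest HFD library lay far above the highest chow library.

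Oas3 stood at 4.93, 3.23 and 5.14 FPKM on HFD, against at most 2.33 FPKM on chow. The log2 fold change was 1.74 (SE 0.45, edgeR adjusted p = 0.0624). Oasl2 stood at 12.9, 8.37 and 8.23 FPKM, against at most 4.83 FPKM on chow. The log2 fold change was 1.73 (SE 0.39, edgeR adjusted p = 0.0498). Replicate 1, the deepest library of the series, was the highest of the HFD group for Oas2, Oasl1 and Oasl2, but not for Oas3.

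Oasl1 stood at 4.46, 4.33 and 3.15 FPKM on HFD, and its lowest HFD library was close to the 2.91 FPKM of WT chow replicate 3. The log2 fold change was 0.79 (SE 0.23, edgeR adjusted p = 0.0774). With the adjusted p as the threshold, Oas2 and Oasl2 passed, 2 of 4 members. Of the 7169 listed genes that have an adjusted p, 8.56% were called higher in that way. All 4 calls at the unadjusted threshold held with any 1 library left out, and without WT chow replicate 3 the log2 fold changes grew to 2.67, 2.42, 0.99 and 2.28 for Oas2, Oas3, Oasl1 and Oasl2.

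**Figure D2:**
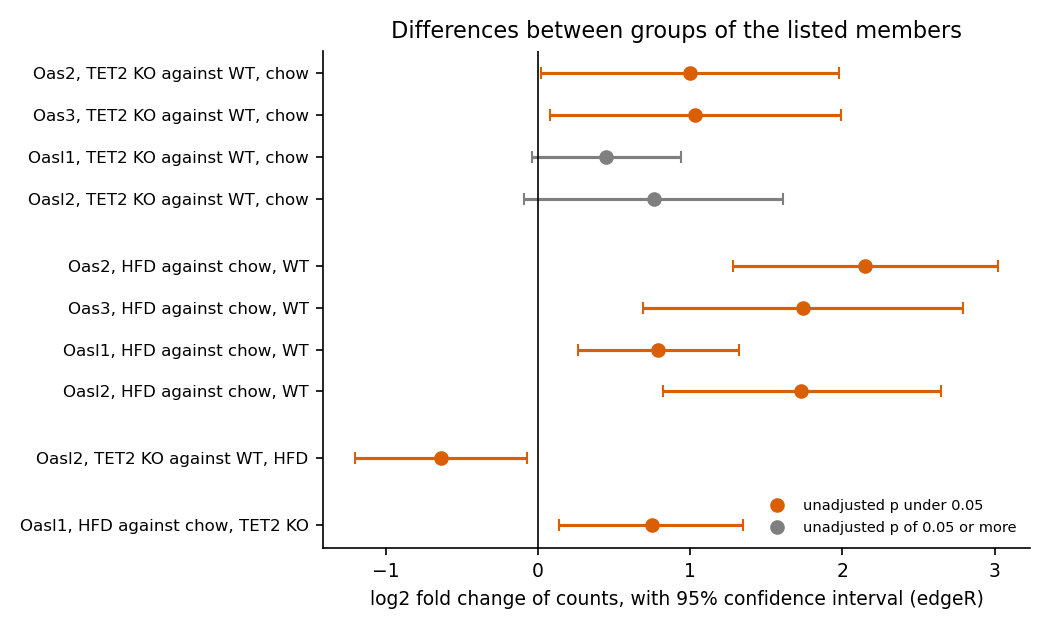
Log2 fold change (x axis) of each member in each comparison that lists it, from edgeR on the counts, with its 95% confidence interval. HFD against chow in WT lies above 0 for all 4 members, from 0.79 for Oasl1 to 2.15 for Oas2, TET2 KO against WT on chow has intervals that reach or nearly reach 0, and Oasl2 is below 0 for TET2 KO against WT on HFD.

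Endothelial markers rose with the diet in the same libraries. All 10 were listed and higher on HFD, 9 passed the threshold, their median log2 fold change was 1.34, and their summed level was 824 to 1460 FPKM on HFD and 276 to 783 FPKM on chow. Set against the geometric mean FPKM of these 10 markers in the same library, Oas2 was at 6.17 to 6.57% in the 3 WT chow libraries, so that replicate 3 no longer stood apart, and at 8.3 to 15.4% on HFD. The difference of Oas2 by this measure was 0.82 on the log2 scale, where that of the counts was 2.15, and the libraries did not overlap. Oas3 was at 3.7 to 4.58% on chow and 3.84 to 9.76% on HFD, and Oasl2 at 9.24 to 10.1% on chow and 9.93 to 15.6% on HFD, both with overlap. Oasl1 was at 5.71 to 9.61% on chow, with replicate 3 the lowest, and at 4.59 to 5.98% on HFD, lower on average by this measure. By the 10 markers its difference was -0.62 on the log2 scale, with overlap. Relative to the 7 markers that also have values in TET2 KO on HFD, Oasl1 was lower on HFD without overlap (-0.73 on the log2 scale). Those 7 were all listed as higher in WT than in TET2 KO on HFD, which by itself lowers ratios to them in WT on HFD. These ratios were computed after the data were seen and carry no test.

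Other cell type markers moved as well. All 6 NK cell markers rose in WT on HFD, with a median log2 fold change of 1.90 and a summed level of 99.2 to 165 against 31.7 to 57.1 FPKM. In the monocyte and macrophage list 3 genes rose (Csf1r, Ly6c2 and Ccr2) and Mrc1 fell, of 8. No B cell or neutrophil marker was listed in any comparison. The part of these cells in the OAS result was not tested.

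**Figure D3:**
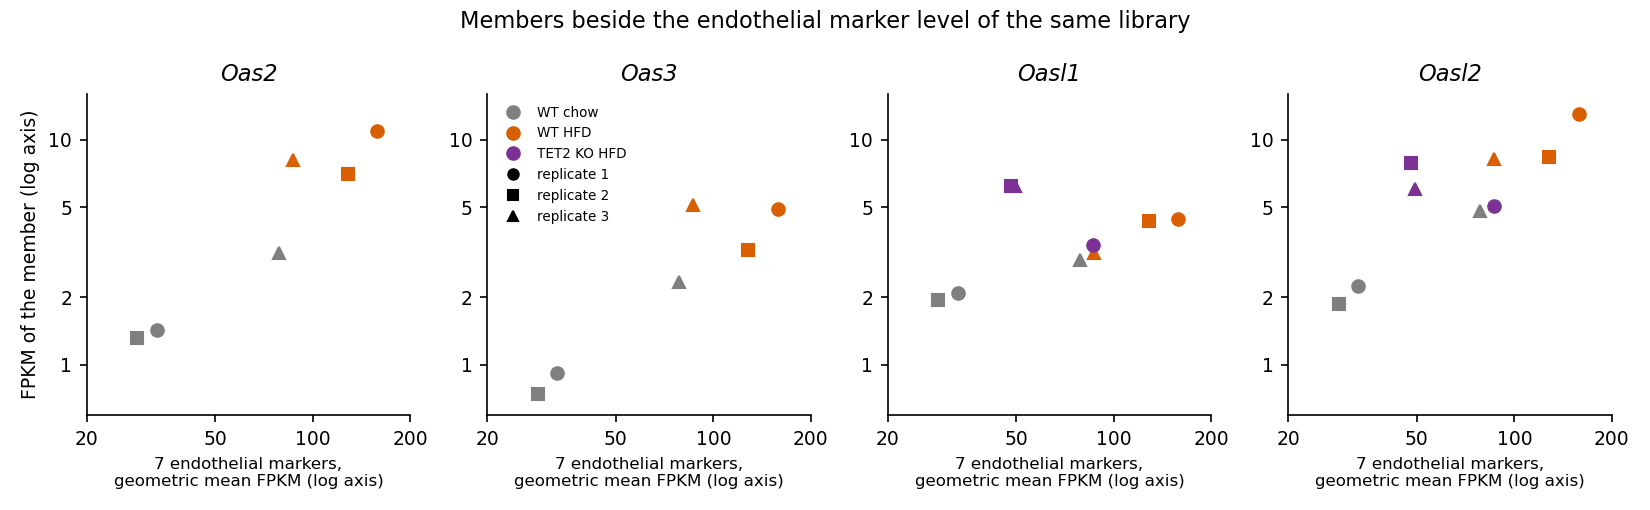
FPKM of each member (y axis, log scale) against the geometric mean FPKM of 7 endothelial markers in the same library (x axis, log scale), for the 9 libraries in which the markers have values, coloured by group and with the replicate number as the shape. WT chow replicate 3 is the highest of its group on both axes in all 4 panels, whereas TET2 KO HFD replicate 1 has the highest marker level of its group (86.5 FPKM) and the lowest Oasl1 and Oasl2.

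To ask whether TET2 mattered on HFD, TET2 KO was compared with WT under that diet. Oasl2 fell, in contrast to its higher mean in TET2 KO on chow. It was at 12.9, 8.37 and 8.23 FPKM in WT and at 5.06, 7.83 and 6.05 FPKM in TET2 KO. Every TET2 KO library lay below every WT library, though TET2 KO replicate 2 came close. The log2 fold change was -0.64 (SE 0.24, edgeR adjusted p = 0.293). Among the 3939 listed genes, 39.1% were called lower and 35.8% had all TET2 KO libraries below all WT libraries. The call was lost without WT HFD replicate 1 (log2 fold change -0.39), and without TET2 KO HFD replicate 1 (-0.51) or 3 (-0.60).

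Endothelial markers were lower in the same comparison. Of 10 markers 7 were listed, all 7 fell, with a median log2 fold change of -1.02, and their summed level was 399 to 732 FPKM in TET2 KO and 763 to 1350 FPKM in WT. Relative to the geometric mean of these 7 markers, Oasl2 was at 5.85 to 16.3% in TET2 KO and 6.53 to 9.48% in WT, so the groups overlapped and the mean was not lower in TET2 KO. The 7 markers have values in TET2 KO on HFD only because they were listed here, all as lower, which by itself raises ratios to them in TET2 KO. Kdr, Erg and Vwf were not listed. Of 8 monocyte and macrophage markers only Ccr2 was listed. It fell too, from 11, 16.2 and 17.4 FPKM in WT to 3.65, 8.76 and 9.16 FPKM in TET2 KO (log2 fold change -1.04, SE 0.35). Mrc1 of the same list had means of 46.1 FPKM in WT and 46.4 FPKM in TET2 KO on HFD. The part of endothelial cells and monocytes in the fall of Oasl2 was not tested. Oasl1 was not listed for this comparison, and in a fit across all 12 libraries its log2 difference was 0.41 (SE 0.26, edgeR adjusted p = 0.239) and did not pass the threshold. It was at 3.42, 6.24 and 6.21 FPKM in TET2 KO on HFD, and relative to the 7 markers it was at 3.96 to 13% there and at 2.82 to 3.63% in WT on HFD, above it in every library.

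To ask what the diet did without TET2, TET2 KO on HFD was compared with TET2 KO on chow. Oasl1 rose, by 1.68-fold, from 2.99, 3.03 and 3.45 FPKM on chow to 3.42, 6.24 and 6.21 FPKM on HFD. HFD replicate 1 lay within the chow range and the other HFD libraries well above it. The log2 fold change was 0.75 (SE 0.26, edgeR adjusted p = 0.828), and 29.3% of the 1628 listed genes were called higher, while 30.2% lay apart with HFD higher. The call was lost without either of the high HFD libraries (replicates 2 and 3), and without chow replicate 1 or 2. The log2 fold change was then 0.61 without either HFD library and 0.71 and 0.72 without the chow libraries, with fewer libraries in each fit.

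TET2 KO HFD replicate 1 differed from the other libraries of its group in markers too. Its endothelial level was 86.5 FPKM, against 48 and 49.5 FPKM, and its level of Gzma, a granzyme of NK and T cells, was 12.2 FPKM, against 53.1 and 54.5 FPKM. Irf7 was also lowest there, at 20 FPKM against 32.1 and 26.4 FPKM. Without this library Oasl1 rose by 0.98 on the log2 scale. No endothelial marker was listed in this comparison, and of 7 T cell markers Cd8a and Trac fell. Of 8 monocyte and macrophage markers, Lyz2 (-0.71, SE 0.25) and Mrc1 (-0.92, SE 0.32) fell, and Ccr2 was lower in every HFD library without passing the threshold (-0.69, SE 0.33). The part of these cells in the rise of Oasl1 was not tested.

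Whether the effect of TET2 loss depended on the diet was tested by the interaction term in a fit over the 975 genes with counts in all 12 libraries. For Oasl2 it passed the threshold, with a TET2 KO mean above that of WT on chow and below it on HFD. The effect of TET2 loss on HFD minus that on chow was -1.40 on the log2 scale (SE 0.49, 95% confidence interval -2.47 to -0.33, edgeR adjusted p = 0.0287). In this fit 28.6% of genes had a negative interaction past the threshold and a further 271 genes a positive one. By edgeR's adjusted p under 0.05, 273 genes had a negative interaction and 267 a positive one. A gene has counts in all 12 libraries only if it was listed in several comparisons, and Oasl2 appears in both tables that compare the genotypes, with opposite signs, so the test is not independent of how the gene came to have values. The value ranged from -1.94 to -1.16 when 1 library was left out. For Oasl1 the interaction was -0.04 (SE 0.37, edgeR adjusted p = 0.958), with a 95% interval from -0.84 to 0.76, which leaves room for a difference of either sign. The monocyte gene Ccr2 was also higher in TET2 KO on chow (11.6 against 5.72 FPKM in WT) and lower on HFD (7.19 against 14.8 FPKM). In TET2 KO, however, Ccr2 had a lower mean on HFD than on chow, where Oasl2 had a higher one. The part of monocytes in the Oasl2 result was not tested. The endothelial markers have no listed value in TET2 KO on chow, so their interaction was not tested.

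Ordered by mean FPKM, Oas2 (1.96, 3.93 and 8.67) and Oas3 (1.33, 2.72 and 4.44) were lowest in WT on chow, then in TET2 KO on chow and highest in WT on HFD. For Oas2 both steps passed the threshold in a fit across the 9 libraries. At the lower step, from WT to TET2 KO on chow, 315 of the 1407 genes fitted were called higher. Oas2 and Oas3 had been listed for that comparison by the authors' test, so this step is not independent of how they came to have values. The upper step of Oas2, between TET2 KO on chow and WT on HFD, was 1.14 on the log2 scale (SE 0.39, edgeR adjusted p = 0.0704), where 13.4% of the genes fitted were called higher. For Oas3 that step, 0.70 (SE 0.39, edgeR adjusted p = 0.208), did not pass although the libraries lay apart. Oasl1 had means of 2.31 in WT on chow, 3.16 in TET2 KO on chow, 3.98 in WT on HFD and 5.29 FPKM in TET2 KO on HFD, and no pair of neighbours in this order passed. Its ends did, with 1.19 between TET2 KO on HFD and WT on chow (SE 0.26, edgeR adjusted p = 0.0451), where 12.6% of genes were called higher. Oasl1 was listed as higher both for TET2 KO against WT on chow and for HFD against chow in TET2 KO. The contrast of its ends is therefore not independent of how the gene came to have values. In that contrast Oasl2 was higher too, by 1.09 (SE 0.35, edgeR adjusted p = 0.0615). Oasl2 had means of 2.97, 5.04, 6.31 and 9.85 FPKM in the WT chow, TET2 KO chow, TET2 KO HFD and WT HFD groups. Of its neighbouring pairs only the lowest passed (0.76, SE 0.35, edgeR adjusted p = 0.171), unlike in the fit of those 2 groups alone. At that step, for which Oasl2 had also been listed by the authors' test, 151 of the 975 genes fitted were called higher. The step of 0.64 between TET2 KO HFD and WT HFD (SE 0.35, edgeR adjusted p = 0.159) did not pass in this fit, although it had in the fit of its own 2 groups.

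The members' shares of their summed level are given as a description, with no test and without the other genes of the family. The 4 members summed to 8.58 ± 4.04 FPKM in WT on chow, 14.9 ± 2.54 FPKM in TET2 KO on chow and 26.9 ± 5.53 FPKM in WT on HFD (SD, n = 3). Oasl2 gave the largest mean share in all of them, between 33.9 and 36.3%. The share of Oasl1 was 28.8 ± 5.92%, 21.7 ± 4.26% and 15 ± 3.36% in that order, and that of Oas2 was 22.6 ± 1.21%, 25.8 ± 6.19% and 32.1 ± 1.37%. The share of Oas3 was 14.7 ± 2.6%, 18.6 ± 2.67% and 16.6 ± 3.71%, with overlap between WT on chow and WT on HFD. Oas2 at 30.5% or more of the sum in each WT HFD library did not overlap with its 21.4 to 23.8% in WT on chow.

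Among the other genes of the family, 3 rose in WT on HFD. Oas1a, a smaller synthetase, rose from 3.91, 5.17 and 7.56 FPKM on chow to 14.9, 11.3 and 15.7 FPKM (log2 fold change 1.34, SE 0.26, edgeR adjusted p = 0.0416). Oas1g rose from 8, 14 and 42 reads to 170, 56 and 175 reads (log2 fold change 2.44, SE 0.68, edgeR adjusted p = 0.0725). Oas1c rose by 0.65 (SE 0.21, edgeR adjusted p = 0.0993). In all, 7 of 12 family genes were listed in that comparison and all 7 rose, where 42.4% of the 7330 listed genes were called higher. The median log2 fold change of the 7 was 1.73, beside a median of -0.33 over the listed genes. On chow, TET2 KO against WT listed the 4 members and no other gene of the family. On HFD, Oas1c was at -0.52 (SE 0.24) and Oas1e at 2.02 (SE 0.89) in TET2 KO against WT, and neither passed the threshold, Oas1e with 28, 6 and 3 reads against 5, 3 and 2. In TET2 KO on HFD against chow Oas1b rose by 0.52 (SE 0.20, edgeR adjusted p = 0.828). The Oas1 genes are closely related neighbours, and sharing of reads among them was not measured here, so their single values are uncertain.

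Of the other genes of the 2-5A pathway, Abce1 was listed nowhere. Pde12, whose product degrades 2-5A, was listed in all 4 comparisons. It fell by 0.29 on the log2 scale in TET2 KO against WT on chow (SE 0.12), where Oas2 and Oas3 rose. It fell by 0.26 in WT on HFD against chow (SE 0.10). On HFD it was higher in TET2 KO than in WT by 0.37 (SE 0.15), where Oasl2 fell, and in TET2 KO it rose with HFD by 0.39 (SE 0.16), where Oasl1 rose too. Each of these passed the unadjusted threshold, and the edgeR adjusted p-values were 1, 0.152, 0.314 and 0.85 in that order.

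Interferon and RNA sensor genes were listed in all 4 tables, which differ in length. In WT, HFD against chow, the longest table, 3 of 6 ligands and receptors rose, namely Ifng, the type II interferon (log2 fold change 0.99), Ifnar2, a chain of the type I receptor (0.59), and Ifngr1, a chain of the type II receptor (0.53). Of 10 signalling genes considered 4 rose, namely the transcription factors Stat2 (0.37) and Irf7 (0.72), Usp18, a brake on the type I receptor (1.62), and Socs3 (0.66). Of 8 RNA sensors and adaptors 6 rose, with a median of 0.86, among them the sensors of viral RNA Ddx58 (0.61), Ifih1 (0.96) and Dhx58 (0.76) and the kinase Eif2ak2 (0.36). Zbp1 (1.24) and Tlr3 (1.03), named after their values were seen, had the largest differences of this list. No listed gene of these 3 lists fell there, and 42.4% of the 7330 listed genes were called higher. In TET2 KO against WT on chow, Ddx58 (0.40) and Zbp1 (0.56) rose, where 30.6% of the 1298 listed genes were called higher. None of the ligands and receptors or of the 10 signalling genes considered was listed in that comparison.

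On HFD, TET2 KO had lower Usp18 (-0.60), Socs3 (-0.37), Ifih1 (-0.66) and Tlr3 (-0.92) than WT, in the comparison where Oasl2 fell, and higher Jak2 (0.40) and Ifngr2 (0.34). In TET2 KO on HFD against chow, Irf7 rose (0.63), in the comparison where its translational inhibitor Oasl1 rose, and Mavs, the adaptor of the cytosolic RNA sensors, fell (-0.61). The listed genes Stat2, Ifnar1 and Ifngr2 had differences of 0.31, 0.37 and 0.34 there that did not pass.

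**Figure D4:**
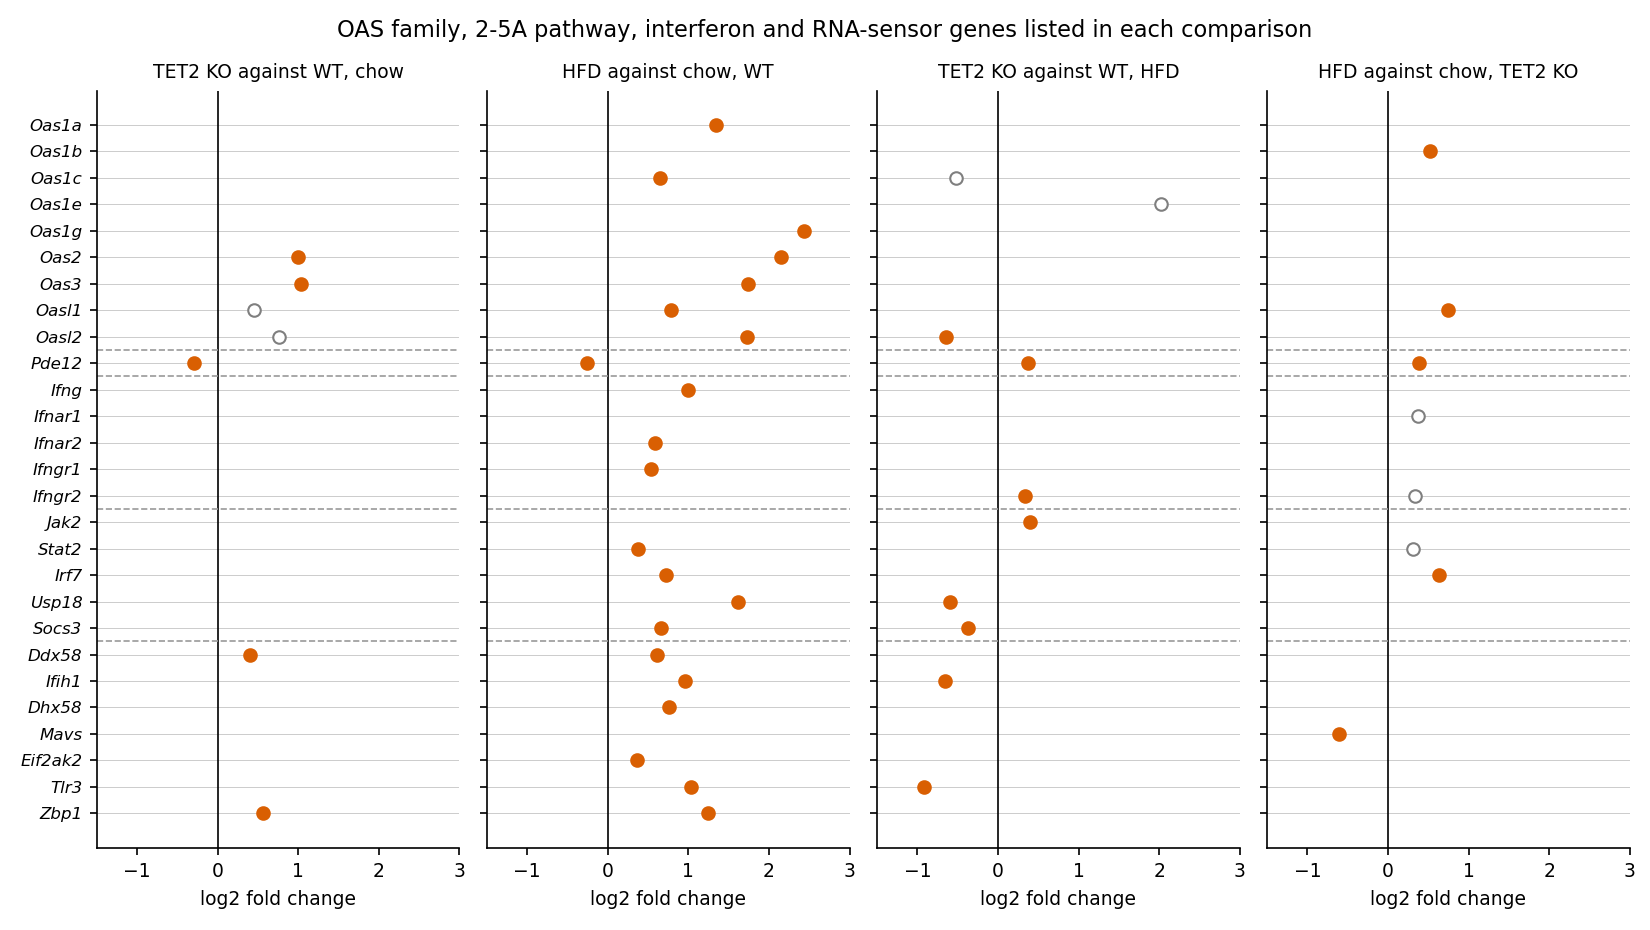
Log2 fold change from edgeR (x axis) of the listed genes reported from the OAS family, 2-5A pathway, interferon and RNA-sensor lists in each comparison, with filled points for an unadjusted p under 0.05, open points for the others and dashed lines between lists. HFD against chow in WT has the most points, all above 0 except Pde12, and TET2 KO against WT on HFD has points on both sides.

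The genes whose pattern was most like that of the family were taken over the 9 libraries in which all 4 members have values, among 1097 genes with a value there and at least 50 reads on average. The likeness is Pearson's r with the mean of the members' standardized log2 FPKM, as a description, since the libraries share groups and the genes were all listed for the same comparisons. Prrt4 (0.977), Pllp (0.977), Rprml (0.976), Krt80 (0.970) and Stard8 (0.968) came highest. Prrt4 was also closest to Oas2 (0.987), Rprml to Oas3 (0.985), Pllp to Oasl2 (0.989) and St3gal6 to Oasl1 (0.965). Pllp was at 1.13 ± 0.394 FPKM in WT on chow, 1.82 ± 0.287 FPKM in TET2 KO on chow and 3.36 ± 0.683 FPKM in WT on HFD (SD, n = 3).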

How the data were processed

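RNA of CD31+ lung cells from 12 mice gave 12 libraries, 3 per group, and groups and replicate numbers were taken from the labels. The authors aligned paired-end reads of poly(A) RNA with HISAT2 to mm10, counted them with featureCounts and compared groups with DESeq2. Versions and the strand setting are not given in the sources used here. The authors deposited 4 tables of raw counts, of normalized counts (a signal: counts over a size factor estimated per library in each table) and of FPKM. Columns of log2 fold changes from the authors' DESeq2 test were not used. The authors' DESeq2 p-values served only to check that every listed gene had p under 0.05 and to recover over how many genes they adjusted (18463 genes for the genotypes on chow, 23768 for the diets in WT, 18703 for the genotypes on HFD and 19511 for the diets in TET2 KO).

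Each comparison was fitted with edgeR 4.0.16 under R 4.3.3, taking the counts of all genes of its table, with library sizes from the authors' size factors and no covariate. Interaction and group order came from 1 fit of 975 genes with library totals recovered from count, length and FPKM. A fit of 1407 genes over 9 libraries was added for Oas2 and Oas3 after the data were seen. Alternatives were DESeq2 1.42.0, TMM factors, library totals, a mean normalized count of at least 10, limma-trend (limma 3.58.1) on log2(FPKM + 0.1) or log2(FPKM + 1), the replicate number as a block, adjusted p, and leaving out each library. The fits were tested on simulated data. Genes outside the family were named by list, all listed ones of the family and 2-5A lists and up to 4 of each other list, apart from a few named after their values were seen (Zbp1 and Tlr3 for HFD against chow in WT, and Gzma). Some members of these lists are not reported here. The members, lists and tests were chosen with earlier results of these data known. Mice were separate animals, 1 library each.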

Additional observations from a re-analysis of the deposited data

Results flagged for a closer look

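The effect of TET2 loss on Oasl2 passed the threshold for a difference between diets. On HFD minus on chow it was -1.40 on the log2 scale (SE 0.49, edgeR's quasi-likelihood test over 12 libraries, adjusted p = 0.0287), with TET2 KO above WT in the means on chow (5.04 against 2.97 FPKM) and below it on HFD (6.31 against 9.85 FPKM). All 3 TET2 KO libraries were below all 3 WT libraries on HFD, while on chow WT replicate 3 lay above 2 TET2 KO libraries. In the same fit 28.6% of 975 genes had a negative interaction past the threshold, and 273 genes had one by adjusted p. Oasl2 appears in both tables that compare the genotypes, with opposite signs, so the test is not independent of how the gene came to have values. Of 7 endothelial markers listed for TET2 KO against WT on HFD, all 7 fell too. The monocyte gene Ccr2 was the only 1 of 8 monocyte and macrophage markers listed for either comparison of the genotypes. It was higher in TET2 KO on chow (log2 fold change 1.01, SE 0.20) and lower on HFD (-1.04, SE 0.35), as Oasl2 was in the means. The part of these cells in the difference was not tested.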

How the results depend on the processing

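On 14 log2 differences, 196 alternatives gave 164 with the same direction and side of the threshold, 21 weaker, 5 stronger and 6 reversed. The 6 reversed values were all of Oasl1's interaction, -0.04 with all libraries, and lay between 0.03 and 0.20 with 1 library left out, where all such fits gave -0.24 to 0.20. Between genotypes on chow, 2 of 4 members were called, 4 with TMM factors, 1 with limma-trend on log2(FPKM + 1), 1 with genes under a mean normalized count of 10 left out, 0 by adjusted p, and 0 to 4 with 1 library left out. HFD against chow in WT kept 4 calls except by adjusted p (2). By adjusted p 0 calls were left for TET2 KO against WT on HFD and 0 for HFD against chow in TET2 KO, each with 0 to 1 call with 1 library left out. Of 6 neighbouring pairs of Oasl1 and Oasl2 in group order 1 passed, 2 with TMM factors, 0 by adjusted p and 0 to 3 with 1 library left out, and of 4 pairs of Oas2 and Oas3 3 passed, 0 by adjusted p and 1 to 4 with 1 library left out. The count for the interaction was 1 under every alternative run. With the replicate number as a block, 0 pairs of Oasl1 and Oasl2 passed, while 3 of Oas2 and Oas3 did. Deviations of same-numbered libraries correlated between -0.226 and 0.266 over the 4 comparisons. These came from genes listed for a difference, and the labels state no pairing, so whether the numbers pair the mice is unknown. The block changed no other count by over 1.5 times. The cause of these changes was not tested. Depth did not limit the members, while Oas1e rested on few reads.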

Other observations

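Markers of other lung cells, which the comparisons between groups above do not use, moved in places with the members. Ager, a gene of alveolar type I epithelial cells, was at 13.2, 13.5 and 26.9 FPKM in WT on chow, so that replicate 3 was the highest there too, rose in WT on HFD (log2 fold change 1.34, SE 0.29) and on HFD fell with loss of TET2 (-1.06, SE 0.30). Scgb1a1, a gene of airway club cells, fell in TET2 KO on chow (-0.90, SE 0.18), as did the collagen genes Col1a1 (-0.89) and Col1a2 (-1.08), which lay at or below 2.18 FPKM in every chow library. Epcam fell on HFD in both genotypes (-0.70 in WT and -0.60 in TET2 KO). Of 4 platelet markers 3 were listed for HFD against chow in WT. There Gp1ba (-1.45, SE 0.23) and Itga2b (-0.47, SE 0.18) fell, and Ppbp was higher without passing the threshold (0.87, SE 0.47). On HFD, Gp1ba was higher in TET2 KO than in WT (0.83, SE 0.30). Of 4 plasmacytoid dendritic cell markers, Siglech was listed once, for HFD against chow in WT (-0.67, SE 0.32), and did not pass the threshold.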
